A study of Mus musculus with 26 samples.

Results

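Mitochondrial DNA (mtDNA) is kept, copied and read by a small set of nuclear-encoded factors, and the transcripts of 10 of them were followed in the proximal small intestine (SI) of knockout and control mice. The 10 genes were taken by symbol from the 55487 genes of the count table, by their known function. They are the transcription factors and polymerase *Tfam*, *Polrmt*, *Tfb1m* and *Tfb2m*, the replication proteins *Polg*, *Polg2*, *Twnk* and *Ssbp1*, and the mRNA-stabilizing pair *Lrpprc* and *Slirp*. Knockout mice (tg in the labels) carry a floxed nuclear gene that mitochondria need for translation, together with a tamoxifen-inducible Cre that the Villin promoter drives in intestinal epithelial cells (IECs), and control mice (wt in the labels) carry the floxed gene without Cre. Mice of both genotypes were of the C57BL/6N strain, were between 8 and 12 weeks old, received 5 daily injections of tamoxifen, and were killed 3 or 7 days after the last one (tg.3d and wt.3d with 7 mice each, tg.7d and wt.7d with 6 mice each). A piece of tissue just after the stomach was sequenced from the 3′ ends of polyadenylated RNA, with 1 library per mouse. Only IECs lose the gene, whereas the piece also holds lamina propria and muscle, so that fewer cells of a type and less RNA per cell cannot be told apart in any value given here.

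Mammalian mtDNA is a small circle packed by TFAM into nucleoids, and TFAM also bends the promoter so that the RNA polymerase POLRMT can start with the help of TFB2M. The long transcripts of both strands are processed into rRNAs, tRNAs and mRNAs, and most of the mRNAs receive a poly(A) tail. LRPPRC and SLIRP form a complex that holds these mRNAs in a stable, translatable form. The polymerase POLG with its accessory subunit POLG2, the helicase TWNK and the single-strand binding protein SSBP1 make up the minimal replisome. The epithelium of the small intestine is renewed within days, so that the progenitors in its crypts have to copy mtDNA as they divide.

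All 10 genes had counts in every library and passed the filter on zero counts in every comparison. All 8 markers of epithelium and all 6 of enterocytes had counts in each group, as fits intestinal tissue. The libraries held between 3720168 and 6338016 counts (median 5235752). *Lrpprc* was counted most deeply with 826 to 3854 counts per library, followed by *Slirp* (252.5 to 479.5), *Tfam* (117 to 264) and *Polg* (105 to 194). For *Tfb1m* (6 to 30.5 counts), *Polg2* (8 to 33) and *Tfb2m* (4 to 44), only large differences were detectable at this depth. In 8 of the 26 libraries, marker transcripts of stomach epithelium and pancreatic acinar cells together exceeded 5000 CPM, a count scaled to the total of its library. These were 2 knockout and 4 control libraries of day 3 and 1 library of each genotype of day 7. Calls that were lost without them are stated, in most cases with the value. In the annotation of GRCm38, *Slirp* shares 97.8% of its exon bases with genes of the opposite strand (*Alkbh1* and *Snw1*), and 28.3% of the last 500 exon bases of *Tfb1m* and 37.9% of those of *Polg2* lie on *Tiam2* and *Milr1*. *Polg* and *Twnk* share 8.57% and 12.6% of their exon bases with *Fanci* and *Mrpl43* of the opposite strand, and 0% of the last 500. Counts were fractional in 16 (*Slirp*), 13 (*Tfb1m*), 10 (*Polg2*), 10 (*Polg*) and 9 (*Twnk*) of 26 libraries. They were fractional in 0 for *Tfam*, *Polrmt* and *Lrpprc*, which share no exon bases. Reads on several genes were split into fractions, and no strand setting was stated for the counting. The values of *Slirp*, *Tfb1m*, *Polg2*, *Polg* and *Twnk* thus hold split reads that may come from these partners. Summed levels of marker lists that moved with a group are given beside the results.

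The promoters of these genes carry motifs that are known from nuclear genes of mitochondria. Sequences from 250 bases before to 50 bases after the RefSeq start (build GRCm38.p6) were at hand for all 10 genes, with 11 promoters because *Twnk* has 2. The core of ETS family factors such as GABPA, CCGGAAG, was searched on both strands and stood in a promoter of 7 of the 10 genes (*Tfam*, *Polrmt*, *Polg*, *Polg2*, *Twnk*, *Ssbp1* and *Slirp*), whereas 8.86% of 32851 promoters held it. The core of NRF1, GCATGCGC, was found in 2 genes (*Polrmt* and *Tfb2m*) and in 2.71% of all promoters. None of the 10 genes held CACGTG, TGACGTCA or the amino acid response element TGATGNAAT in this window, which 7.15%, 1.79% and 0.965% of all promoters did. The motifs searched do not overlap each other in these promoters. The 10 factors were counted per gene, whereas the shares of all promoters are per promoter and were not matched for content of G and C. The 11 promoters had 46.7% to 70.3% of G and C, and the median of all promoters was 52.7%. Shown here are the 3 genes whose transcripts differed between the genotypes at 7 days and the partner of *Lrpprc*, with matched motifs in capitals and all on the strand of the gene. *Tfam* (chr10:71237995-71238294, minus strand) has 1 ETS core at positions -47 to -41, counted from the base of the start as 0. *Polrmt* (chr10:79746532-79746831, minus strand) has an NRF1 core at -133 to -126 and an ETS core at -43 to -37, both reading on the opposite strand. *Lrpprc* (chr17:84790737-84791036, minus strand) has no match, and *Slirp* (chr12:87443646-87443945, plus strand) has 3 ETS cores, at -146 to -140 and -11 to -5 on the opposite strand and at -48 to -42.
Tfam: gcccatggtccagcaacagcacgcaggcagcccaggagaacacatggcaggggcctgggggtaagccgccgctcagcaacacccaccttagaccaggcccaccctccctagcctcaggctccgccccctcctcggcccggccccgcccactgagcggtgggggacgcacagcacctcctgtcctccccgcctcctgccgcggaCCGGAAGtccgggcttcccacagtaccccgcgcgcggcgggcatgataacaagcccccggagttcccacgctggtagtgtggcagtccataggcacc
Polrmt: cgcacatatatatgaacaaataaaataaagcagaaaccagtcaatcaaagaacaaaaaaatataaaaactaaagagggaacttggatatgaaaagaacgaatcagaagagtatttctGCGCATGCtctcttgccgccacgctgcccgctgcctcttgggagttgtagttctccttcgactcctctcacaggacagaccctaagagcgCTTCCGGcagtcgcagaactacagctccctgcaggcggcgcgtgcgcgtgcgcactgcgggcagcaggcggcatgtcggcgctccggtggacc
Lrpprc: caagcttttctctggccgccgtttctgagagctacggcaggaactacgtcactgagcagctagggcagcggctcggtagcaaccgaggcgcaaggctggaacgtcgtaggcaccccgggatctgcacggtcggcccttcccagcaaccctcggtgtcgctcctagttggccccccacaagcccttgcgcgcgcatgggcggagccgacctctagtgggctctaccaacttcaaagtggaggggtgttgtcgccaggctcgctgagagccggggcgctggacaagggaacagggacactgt
Slirp: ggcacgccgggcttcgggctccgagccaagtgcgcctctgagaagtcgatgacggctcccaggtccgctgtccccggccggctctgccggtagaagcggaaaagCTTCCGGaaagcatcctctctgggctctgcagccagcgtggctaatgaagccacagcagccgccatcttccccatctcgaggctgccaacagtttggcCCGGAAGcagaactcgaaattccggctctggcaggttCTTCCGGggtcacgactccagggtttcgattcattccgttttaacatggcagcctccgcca

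At 7 days, *Lrpprc* was higher and *Tfam* and *Polrmt* were lower in knockout mice, and the other 7 genes did not pass the test. These were 3 of 10 genes, and 38.3% of the 20259 genes tested passed at this day (adjusted p under 0.05, edgeR's quasi-likelihood test with Benjamini-Hochberg adjustment over all genes tested). The 10 genes were thus not changed more often than genes at large. Their median log2 fold change was 0.12, against -0.02 for all genes. At 3 days, 0 of 10 genes passed, and 1.51% of 20760 genes did (1.17% higher and 0.347% lower). Of the 10 genes, *Lrpprc* (0.00283) and *Tfb1m* (0.0352) then had an unadjusted edgeR p under 0.05, as 2793 of the 20760 genes did. With DESeq2 1 of the 10, *Lrpprc*, passed, and 764 of all genes did. None of the 10 genes had groups without overlap at that day, and 0.848% of all genes did. Their median log2 fold change was then -0.10, against -0.03 for all genes.

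**Figure D1:**
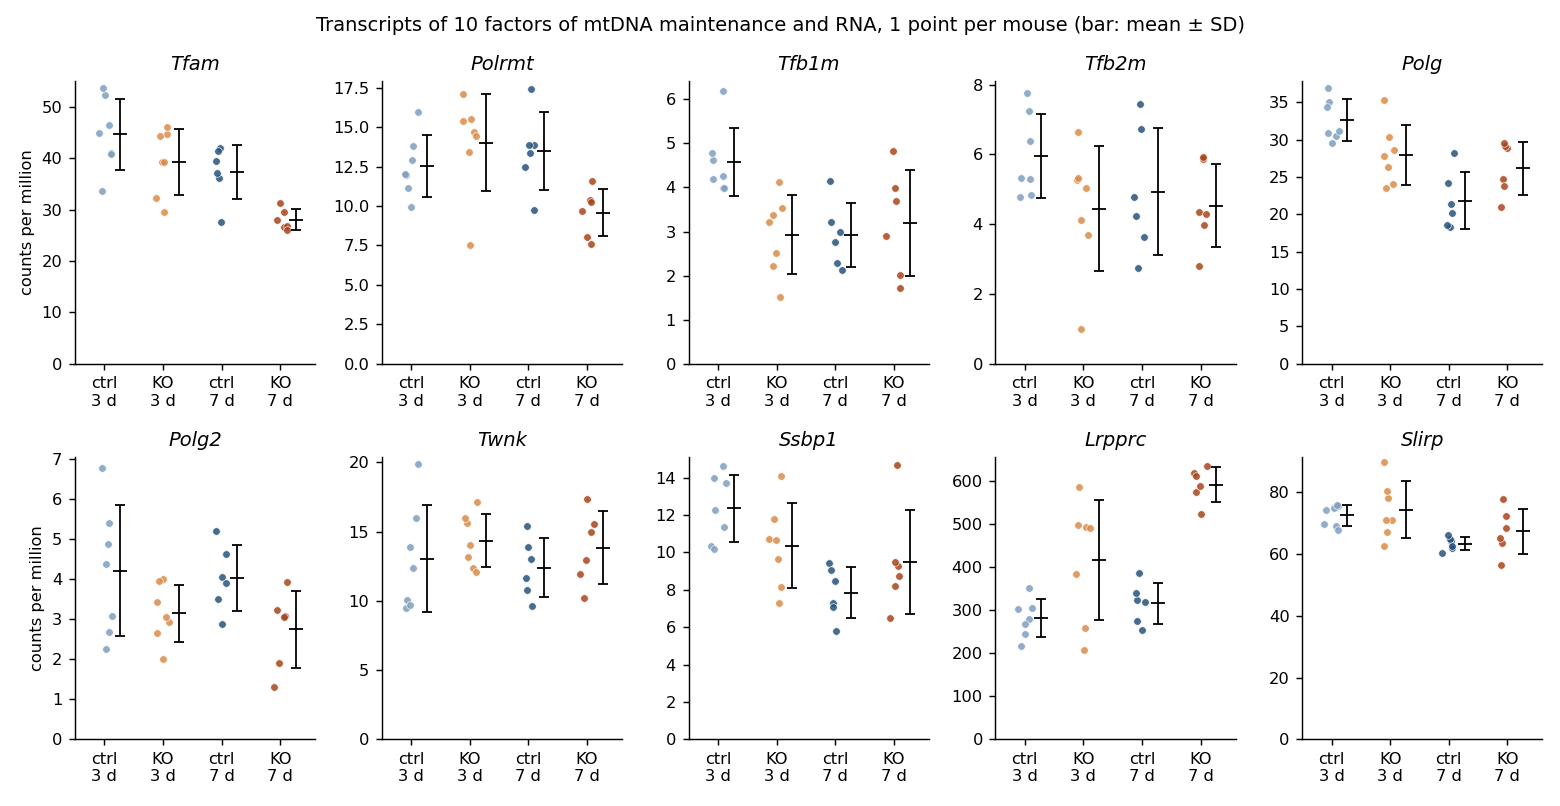
Level of each of the 10 transcripts in CPM, with 1 point per mouse and the mean ± SD of the group beside it (ctrl, control; KO, knockout; n = 7 per genotype at 3 days and n = 6 at 7 days). The groups of *Lrpprc* separate at 7 days, with 522 to 634 CPM in knockout mice and 254 to 387 CPM in control mice, whereas those of the other genes overlap between the genotypes of a day.

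The RNA-binding protein LRPPRC stabilizes mitochondrial mRNAs and promotes their polyadenylation. *Lrpprc* (ENSMUSG00000024120, chromosome 17, 84705247 to 84790789) ranged at 7 days from 522 to 634 CPM (median 599) in knockout mice and from 254 to 387 CPM (median 321) in control mice. Each knockout mouse was above each control mouse. Groups without overlap, in either direction, were found for 1 of the 10 genes and for 22.6% of all genes tested. The mean was 591 ± 40.3 CPM (SD, n = 6) against 316 ± 47.3 CPM (SD, n = 6). This was 1.90-fold, or 0.93 on the log2 scale with a standard error (SE) of 0.11 (adjusted p = 1.11e-07, edgeR). At 3 days the knockout mice ran from 208 to 586 CPM (median 490.3) and the control mice from 216 to 351 CPM (median 280.4). The knockout mice were split, as 5 of 7 lay above the highest control and the others, replicates 1 and 5, lay at 258 and 208 CPM. The library of replicate 1 was rich in stomach transcripts and had the lowest enterocyte markers of its group (453.2 CPM), whereas that of replicate 5 was not rich in them. Replicate 5 had the fewest counts of its group (3971500). It was also the lowest of its group for *Tfam*, *Polrmt*, *Tfb1m*, *Tfb2m*, *Polg2* and *Twnk*, and the highest for *Polg* and *Ssbp1*. The part of tissue content or of depth in this split was not tested. The log2 fold change of 0.68 (SE 0.20, 95% confidence interval 0.26 to 1.09) did not pass over all genes (adjusted p = 0.105). It passed in 4 of 23 alternatives, with DESeq2 (adjusted p = 0.0353), with all 26 libraries in 1 fit (adjusted p = 0.0155), and without knockout replicate 1 (adjusted p = 0.0179) or replicate 5 (adjusted p = 0.0259). The effect at 7 days exceeded that at 3 days by 0.27 on the log2 scale (95% confidence interval -0.23 to 0.77, adjusted p = 0.507), so that a difference between the days was not shown. In order of their mean CPM, knockout mice of day 7 were followed by knockout mice of day 3, control mice of day 7 and control mice of day 3. The ranges of these last 3 groups overlapped, and that of knockout mice of day 3 also overlapped that of knockout mice of day 7.

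SLIRP binds LRPPRC, and each protein depends on the other for its stability. *Slirp* (ENSMUSG00000021040, chromosome 12, 87443896 to 87452206) did not follow *Lrpprc* in its counts. It ranged at 7 days from 56.5 to 77.8 CPM (median 66.8) in knockout mice and from 60.2 to 66.0 CPM (median 63.4) in control mice, so that the groups overlapped. The log2 fold change was 0.11 (SE 0.09, 95% confidence interval -0.08 to 0.30, adjusted p = 0.376), and that at 3 days was 0.14 (SE 0.09, 95% confidence interval -0.05 to 0.32, adjusted p = 0.542). At 3 days the knockout mice ran from 62.5 to 89.8 CPM (median 71.0) and the control mice from 67.9 to 75.7 CPM (median 74.2), so that the knockout mice were the more spread. The upper bound of *Slirp* at 7 days lay below the interval of *Lrpprc* at that day, which started at 0.71. At 3 days the intervals of both genes overlapped. Reads split with the opposite-strand partners named above are part of the values of *Slirp*, so that a change of its own transcript cannot be read from them alone.

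Of the 4 transcription factors of mtDNA, *Tfam* and *Polrmt* were lower in knockout mice at 7 days. *Tfam* (ENSMUSG00000003923, chromosome 10, 71225464 to 71238280), which packs mtDNA and opens its promoters, ranged from 26 to 31.3 CPM (median 27.4) in knockout mice and from 27.6 to 41.9 CPM (median 38.3) in control mice. The groups overlapped through 1 control mouse, replicate 2 with 27.6 CPM, whose library was rich in stomach transcripts. The other 5 control mice were at 36.2 CPM or above. The means were 28.0 ± 2.02 and 37.3 ± 5.26 CPM (SD, n = 6 each), with a log2 fold change of -0.39 (SE 0.11, 0.763-fold, adjusted p = 0.0079). Without the libraries rich in stomach or pancreas transcripts it was -0.47 (adjusted p = 0.000973, with 5 mice per genotype). At 3 days *Tfam* was at 39.3 ± 6.43 and 44.7 ± 6.96 CPM (SD, n = 7 each). Its log2 fold change of -0.07 (95% confidence interval -0.35 to 0.20, adjusted p = 0.87, edgeR) did not pass.

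*Polrmt* (ENSMUSG00000020329, chromosome 10, 79736123 to 79746581) encodes the single polymerase that transcribes mtDNA and primes its replication. At 7 days it ranged from 7.61 to 11.6 CPM (median 9.96) in knockout mice and from 9.77 to 17.4 CPM (median 13.6) in control mice. The lowest control mouse was again replicate 2, and the others lay at 12.5 CPM or above, beyond the highest knockout mouse. The log2 fold change was -0.47 (SE 0.16, 0.720-fold, adjusted p = 0.020). At 3 days the knockout mice ran from 7.55 to 17.1 CPM (median 14.7) and the control mice from 9.95 to 15.97 CPM (median 12.1), with a log2 fold change of 0.28 (SE 0.17, adjusted p = 0.525). *Polrmt* thus had a positive estimate at the first day and a negative one at the second.

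The helpers of the polymerase were near the limit of detection. *Tfb2m* (ENSMUSG00000026492, chromosome 1, 179528055 to 179546267), which melts the promoter with POLRMT, was at 4.54 ± 1.20 CPM in knockout and 4.93 ± 1.82 CPM in control mice at 7 days (SD, n = 6 each). Its paralogue *Tfb1m* (ENSMUSG00000036983, chromosome 17, 3519256 to 3557781) methylates the small mitochondrial rRNA and was at 3.19 ± 1.20 and 2.92 ± 0.730 CPM (SD, n = 6 each). At 3 days *Tfb1m* was at 2.93 ± 0.891 CPM in knockout and 4.58 ± 0.771 CPM in control mice (SD, n = 7 each), with a log2 fold change of -0.53 (SE 0.24) that did not pass (adjusted p = 0.32). Its lowest control mouse, at 3.98 CPM, was within the range of the knockout mice, of 1.51 to 4.13 CPM. *Tfb2m* was then at 1.01 to 6.65 CPM (median 5.04) in knockout and 4.78 to 7.77 CPM (median 5.32) in control mice, with an estimate of -0.32 (adjusted p = 0.673). The 95% confidence intervals at 7 days, -0.45 to 0.71 for *Tfb1m* and -0.60 to 0.42 for *Tfb2m*, allow changes of the size seen for *Tfam* in either direction.

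None of the 4 replication genes passed at either day. *Polg* (ENSMUSG00000039176, chromosome 7, 79446231 to 79466362), the catalytic subunit of the mtDNA polymerase, ranged at 7 days from 21.0 to 29.5 CPM (median 26.8) in knockout mice and from 18.3 to 28.2 CPM (median 20.8) in control mice. The log2 fold change of 0.30 (SE 0.12) had an adjusted p of 0.0541 with edgeR, on the other side of the threshold from the fit of all 26 libraries (adjusted p = 0.0339) and from those without knockout replicate 3 (adjusted p = 0.0315) or control replicate 4 (adjusted p = 0.0356). At 3 days *Polg* was at 28.0 ± 4.01 CPM in knockout and 32.6 ± 2.78 CPM in control mice (SD, n = 7 each), with an estimate of -0.12 (adjusted p = 0.711). The accessory subunit *Polg2* (ENSMUSG00000020718, chromosome 11, 106768253 to 106779537) was at 2.75 ± 0.962 and 4.03 ± 0.815 CPM at 7 days (SD, n = 6 each), and its log2 fold change of -0.53 (SE 0.27, adjusted p = 0.125) did not pass. At 3 days *Polg2* ran from 2.01 to 3.99 CPM (median 3.05) in knockout and from 2.26 to 6.79 CPM (median 4.37) in control mice (estimate -0.31, adjusted p = 0.683). The subunits of the same enzyme thus had estimates of opposite sign at 7 days, and neither passed the test.

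The helicase *Twnk* (ENSMUSG00000025209, chromosome 19, 45005663 to 45012762) was at 13.8 ± 2.61 CPM in knockout and 12.4 ± 2.12 CPM in control mice at 7 days (SD, n = 6 each). *Ssbp1* (ENSMUSG00000029911, chromosome 6, 40471352 to 40484700), whose protein coats single-stranded mtDNA at the fork, was at 9.48 ± 2.76 and 7.85 ± 1.37 CPM (SD, n = 6 each). One knockout mouse, replicate 4, had 14.7 CPM of *Ssbp1*, and the other knockout mice had 6.48 to 9.51 CPM. The log2 fold changes of 0.18 (SE 0.16) and 0.30 (SE 0.19) did not pass (adjusted p = 0.41 and 0.23). At 3 days *Twnk* was at 14.4 ± 1.93 CPM in knockout and 13.03 ± 3.86 CPM in control mice, and *Ssbp1* at 10.4 ± 2.27 and 12.4 ± 1.79 CPM (SD, n = 7 each). The estimates of 0.25 for *Twnk* and -0.15 for *Ssbp1* did not pass (adjusted p = 0.577 and 0.776, edgeR), and the groups of both genes overlapped at both days.

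**Figure D2:**
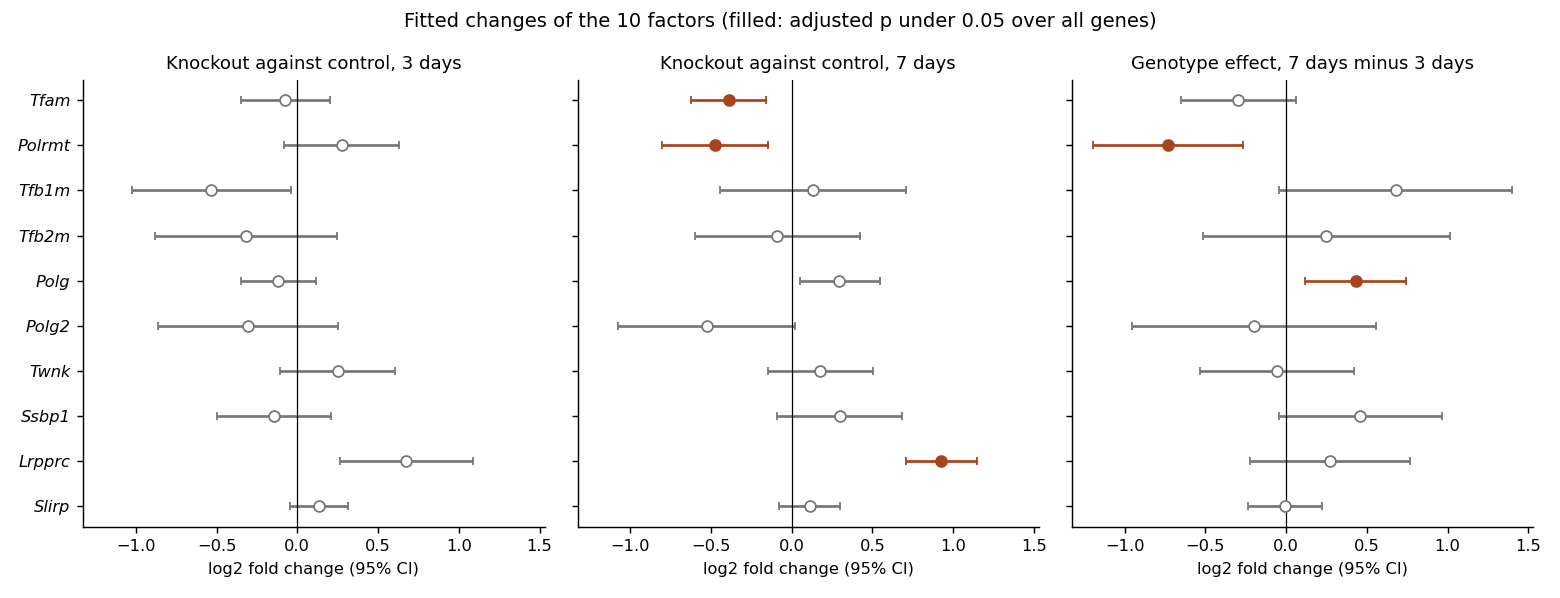
Fitted log2 fold changes of the 10 genes (points) with 95% confidence intervals, for knockout against control mice at 3 days, the same at 7 days, and the effect at 7 days minus that at 3 days. Filled points passed an adjusted p of 0.05 over all genes (edgeR): none at 3 days, *Tfam*, *Polrmt* and *Lrpprc* at 7 days, and *Polrmt* and *Polg* for the difference between the days.

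The change of the genotype effect between the days was tested as an interaction of genotype and day over all 26 libraries. It passed for 2 of 10 genes and for 18.2% of the 19604 genes tested. The effect on *Polrmt* was lower at 7 than at 3 days by a log2 fold change of -0.73 (SE 0.23, adjusted p = 0.023, edgeR), and that on *Polg* was higher by 0.43 (SE 0.15, adjusted p = 0.0475). The call of *Polrmt* was lost without the libraries rich in stomach or pancreas transcripts (-0.71, adjusted p = 0.084) and without control replicate 1 of day 7 (-0.66, adjusted p = 0.0509), which had the highest level of *Polrmt* in its group. That of *Polg* was lost in 25 of 34 alternatives, among them the one without the rich libraries, with adjusted p of up to 0.22 across the alternatives. For *Tfam* the difference of -0.30 did not pass (95% confidence interval -0.65 to 0.06, adjusted p = 0.268), although only its effect at 7 days had passed.

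Markers of dividing cells and of enterocytes moved in the same comparison. At 7 days the summed level of 14 markers of proliferating cells was 216 to 335 CPM in knockout and 736 to 921 CPM in control mice, and 13 of the 14 markers were lower past the test while 1 (*Rrm2*) was higher. The 5 stem cell markers summed to 70.1 to 118 CPM against 327 to 412 CPM (4 of 5 lower), and the 6 enterocyte markers to 1215 to 2798 CPM against 11703 to 21864 CPM (5 of 6 lower). The 8 epithelial markers summed to 3003 to 3506 CPM against 4098 to 5245 CPM, with 5 of 8 lower. Immune markers summed to 260.4 to 595 CPM against 632 to 1411 CPM, with 3 of 6 lower and 1 higher. Of 6 stromal markers, with sums of 878 to 1808 CPM against 816 to 1326 CPM, 2 were higher. The 7 smooth muscle markers, at 698 to 1018 CPM against 614 to 1106 CPM, had 0 past the test. No defining marker of these lists was at 0 in all libraries of a group, and their part in the changes of *Lrpprc*, *Tfam* and *Polrmt* was not tested. At 3 days the ranges of all these lists overlapped between the genotypes, and 1 stem cell marker was lower.

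The transcripts on which these factors act were higher in knockout mice for some mRNAs of mtDNA, and neither rRNA passed the test at either day. The 13 mRNAs of mtDNA, which code for subunits of the respiratory chain and ATP synthase, took 11.9% to 14.0% of all counts in knockout mice and 7.19% to 9.79% in control mice at 7 days, without overlap. The means were 13.1 ± 0.725% and 9.10 ± 1.001% (SD, n = 6 each), a difference of 3.95 percentage points (two-sided exact permutation test over mice, p = 0.00216, the smallest that 924 permutations can give, and 0.00432 after Benjamini-Hochberg adjustment over the 2 days). At 3 days the share was 9.44% to 12.0% in knockout and 8.87% to 10.8% in control mice, so that the groups overlapped. The difference of 1.17 percentage points (10.8 ± 0.814% against 9.59 ± 0.643%, SD, n = 7 each, exact permutation test, p = 0.0146, adjusted p = 0.0146) was 1.13 without the libraries rich in stomach or pancreas transcripts, with 5 knockout and 3 control mice (exact permutation test, p = 0.196). With the rRNAs of mtDNA added to the share, the difference was 3.35 points at 3 days (exact permutation test, p = 0.00583) and 3.90 points at 7 days (p = 0.00216). Leaving out the 10 genes with the most counts, from the mRNAs as well as from the total, gave a share of fewer mRNAs. This smaller share holds almost only *mt-Co1*, *mt-Nd5* and *mt-Nd6*. Its means were 2.32% in knockout and 1.15% in control mice at 7 days. The difference of this smaller share was 0.365 points at 3 days (exact permutation test, p = 0.000583) and 1.17 points at 7 days (p = 0.00216). It is not separate from the change of *mt-Co1*, the most raised of these mRNAs at both days, which is given below. The depth behind each share was at least 3720168 counts, and the spread between mice set its error.

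Only part of the mitochondrial mRNAs can be read in these counts. *mt-Nd3*, *mt-Nd4l*, *mt-Co2*, *mt-Co3*, *mt-Atp6* and *mt-Atp8* had at most 7 counts in any library. For the first 5 of them, between 98.1% and 100% of the stretches of 35 bases also occur in transcripts of nuclear genes that hold copies of mtDNA. Reads that fit 2 places equally well may have been lost from such genes, and 0 or few counts do not show that the mRNA was absent. Of 8 mRNAs tested at 7 days, 4 were higher in knockout mice and 0 lower. *mt-Nd1*, a subunit of complex I that shares 0% of its stretches, was at 22169 ± 1666 CPM in knockout and 9582 ± 1744 CPM in control mice (SD, n = 6 each; log2 fold change 1.23, SE 0.12, adjusted p = 3.18e-08). *mt-Cytb*, the complex III subunit, had a log2 fold change of 1.25 (SE 0.10, adjusted p = 1.37e-10), and *mt-Nd5* had 0.76 (SE 0.10, adjusted p = 8.2e-07).

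*mt-Co1*, the core subunit of complex IV, rose most among them, from 1857 to 2393 CPM in control mice to 7190 to 9798 CPM in knockout mice at 7 days (log2 fold change 1.93, SE 0.10, adjusted p = 1.57e-13). It was also higher at 3 days without overlap of the groups, at 2271 to 4570 CPM against 1577 to 2185 CPM (log2 fold change 0.999, SE 0.16, adjusted p = 0.00203). All of the last 200 start positions of *mt-Co1* are shared with nuclear copies, so that its level rests on the reads that were assigned to it. *mt-Cytb* was the other mRNA past the test at 3 days (log2 fold change 0.73, SE 0.15, adjusted p = 0.0146), a call that was lost without the libraries rich in stomach or pancreas transcripts (adjusted p = 0.0943) and with the replicate number as a block (adjusted p = 0.124). The mRNAs that did not pass at 7 days were *mt-Nd2* (log2 fold change -0.21, adjusted p = 0.088), *mt-Nd4* (0.24, adjusted p = 0.154), *mt-Nd6* (0.19, adjusted p = 0.483) and *mt-Atp6*, which had at most 7 counts. The rRNAs *mt-Rnr1* and *mt-Rnr2* were at -0.10 and 0.09 on the log2 scale at 7 days (adjusted p = 0.361 and 0.55), and at 0.13 and 0.52 at 3 days (adjusted p = 0.662 and 0.1). As the libraries were primed on poly(A), a longer tail and more RNA cannot be told apart for a transcript of mtDNA. *Polrmt* and *Tfam* were thus lower in the same libraries in which 4 mRNAs of mtDNA and *Lrpprc* were higher.

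**Figure D3:**
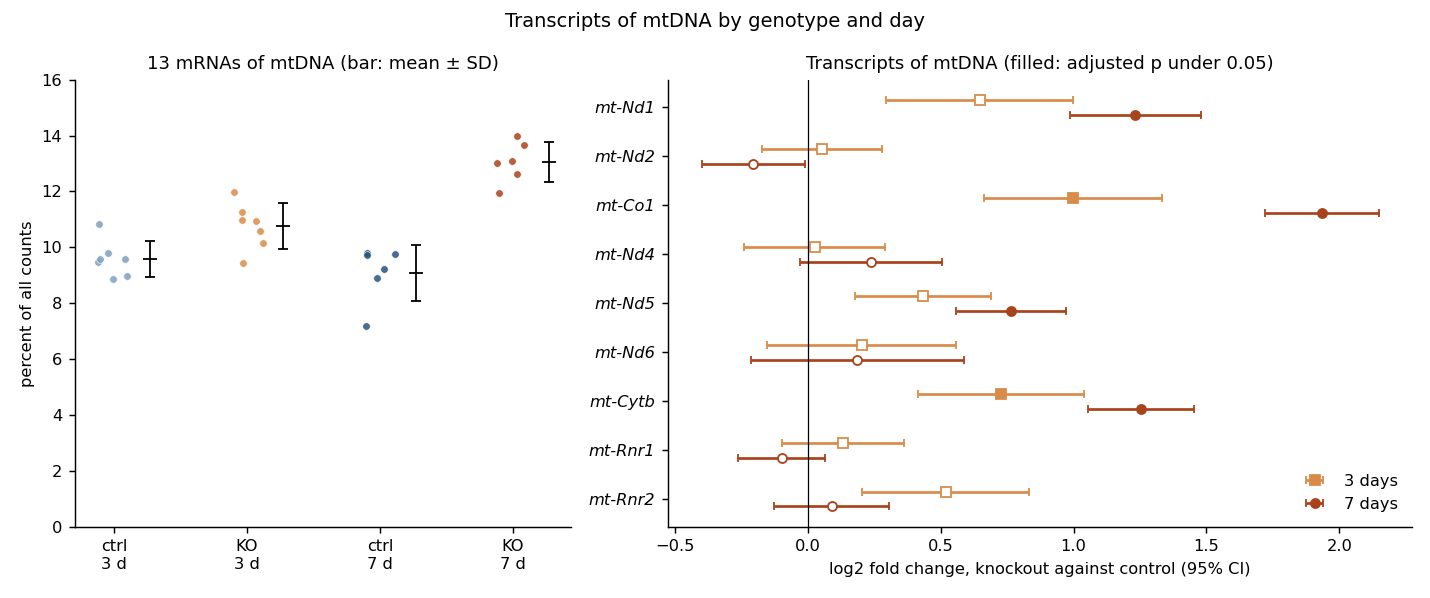
Left, percent of all counts on the 13 mRNAs of mtDNA, with 1 point per mouse and mean ± SD (n = 7 per genotype at 3 days and n = 6 at 7 days). Right, log2 fold change of each transcript in knockout against control mice with its 95% confidence interval, at 3 and 7 days (filled, adjusted p under 0.05), where *mt-Co1* is the highest at both days and the rRNAs lie near 0 at 7 days.

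Other nuclear genes of the pathway were read from 5 lists with 90 genes, of which 89 were tested. At 7 days 52 of the 89 passed, 38 higher and 14 lower in knockout mice, where 19.6% and 18.7% of all genes tested were higher and lower. Their median log2 fold change was 0.20. At 3 days 1 of 89 passed, *Slc25a33*.

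RNA modification enzymes finish the tRNAs and rRNAs of mitochondria. Of 25 genes, 16 were higher and 2 lower at 7 days, with a median log2 fold change of 0.55. *Yrdc*, needed for a modified adenosine next to the anticodon of tRNAs in mitochondria and cytosol, was at 32.96 ± 4.44 CPM in knockout and 13.2 ± 0.956 CPM in control mice (SD, n = 6 each; log2 fold change 1.35, SE 0.12, adjusted p = 9.77e-10). *Nsun4*, a methyltransferase of the small mitochondrial rRNA, was at 46.9 ± 9.68 against 20.1 ± 2.94 CPM (log2 fold change 1.24, SE 0.14, adjusted p = 6.17e-08). The pseudouridine synthase *Trub2* (log2 fold change -0.59, adjusted p = 0.00248) and the rRNA methyltransferase *Mrm2* (-0.57, adjusted p = 0.0338) were lower, and the call of *Mrm2* was lost in 8 of 21 alternatives, among them the one without libraries rich in stomach or pancreas transcripts (-0.51, adjusted p = 0.0837).

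Genes of RNA processing, polyadenylation and turnover had 10 of 23 higher and 0 lower at 7 days, with a median of 0.19. *Lactb2*, an endoribonuclease of the matrix, ranged from 21.4 to 37.3 CPM in knockout and from 6.74 to 11.4 CPM in control mice (log2 fold change 1.61, SE 0.16, adjusted p = 7.15e-09). The RNA helicase *Ddx28*, which acts in assembly of the mitochondrial ribosome, had a log2 fold change of 0.96 (SE 0.13, adjusted p = 1.33e-06). Among 6 tested cofactors of transcription, 1 was higher and 0 lower, the elongation factor *Tefm* (log2 fold change 1.22, SE 0.29, adjusted p = 0.00162). The partner that makes POLRMT processive was thus higher at 7 days, where *Polrmt* was lower.

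The list of replication, nucleoid and nucleotide supply was split, with 8 of 24 higher and 8 lower at 7 days (median -0.11). *Slc25a33*, a carrier that brings pyrimidine nucleotides into mitochondria, was at 42.1 ± 6.97 CPM in knockout and 6.15 ± 1.51 CPM in control mice (SD, n = 6 each), with a log2 fold change of 2.79 (SE 0.16, 6.93-fold, adjusted p = 1.06e-12). It was also higher at 3 days, at 6.31 to 19.3 CPM (median 15.9) against 5.04 to 9.49 CPM (median 6.37), with a log2 fold change of 1.18 (SE 0.23, adjusted p = 0.00928) and groups that overlapped. *Mpv17*, an inner membrane protein needed for mtDNA maintenance in several tissues, was higher at 7 days (log2 fold change 0.92, SE 0.19, adjusted p = 0.000422). The 4-aminobutyrate transaminase *Abat*, which also acts in mitochondrial nucleoside salvage, was at 3.13 ± 0.890 against 41.0 ± 7.22 CPM (SD, n = 6 each; log2 fold change -3.68, SE 0.18, adjusted p = 1.81e-14). The thymidine phosphorylase *Tymp* fell by 2.33 on the log2 scale (SE 0.24, adjusted p = 2.15e-08), with 100% of its last 500 exon bases on *Ncaph2* and *Sco2*. The fall of *Abat* and *Tymp* came in libraries with lower enterocyte markers (values above), whose part in it was not tested.

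Nuclear regulators of these genes had 3 of 11 higher and 4 lower (median -0.12). *Myc*, a growth factor-responsive transcription factor, was at 8.44 ± 2.51 against 3.96 ± 1.57 CPM at 7 days (SD, n = 6 each; log2 fold change 1.11, SE 0.25, adjusted p = 0.000725), and the coactivator *Pprc1* was higher by 0.53 (adjusted p = 0.0196), a call that was lost in 6 of 21 alternatives. The coactivator *Ppargc1b* fell by 0.49 (SE 0.11, adjusted p = 0.000737) and the GC-box factor *Sp1* by 0.47 (SE 0.09, adjusted p = 0.000193) on the log2 scale. For the change between the days, 19 of the 89 genes passed, 15 upwards and 4 downwards, where 8.58% and 9.59% of all genes did.

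**Figure D4:**
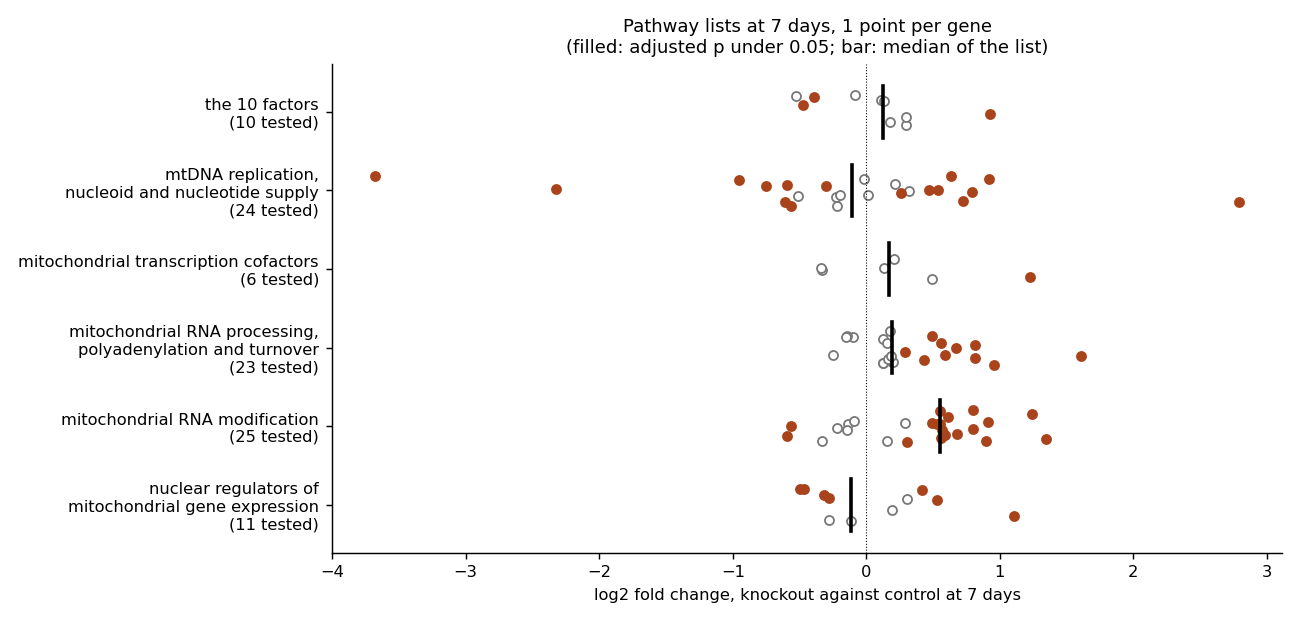
Log2 fold change of each gene in knockout against control mice at 7 days, 1 point per gene, for the 10 factors and the 5 lists of pathway genes (filled, adjusted p under 0.05; bar, median of the list). The median of the RNA modification list, 0.55, lies above those of the other lists, which run from -0.12 to 0.19.

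Control mice of the 2 days were compared because they are the base of each genotype effect, and day and batch cannot be told apart there, as no batch of the libraries is named. Of the 10 genes, 2 passed, *Lrpprc* (log2 fold change 0.54 at 7 against 3 days, adjusted p = 0.00223) and *Polrmt* (0.47, adjusted p = 0.0183), where 35.7% of 20646 genes did. *Polg*, *Ssbp1* and *Slirp* did not overlap in CPM between the days and had lower CPM at 7 days, where 19.0% of all genes tested did not overlap in either direction, and none of the 3 passed. The scaling decided this comparison, since the log2 normalization factors (trimmed mean of M-values, TMM) of day 7 differed from those of day 3 by -0.36, which raises the fitted values of day 7. The median log2 fold change of all genes was -0.06 with these factors and -0.41 with library totals. With library totals alone, *Tfb1m* (-0.62, adjusted p = 0.0344), *Polg* (-0.58, adjusted p = 0.00087) and *Ssbp1* (-0.65, adjusted p = 0.00308) were lower past the test, and *Lrpprc* (0.17, adjusted p = 0.269) and *Polrmt* (0.10, adjusted p = 0.607) no longer passed. *Polg* also passed with all 26 libraries in 1 fit (-0.27, adjusted p = 0.0498), and *Polrmt* no longer did without control replicate 5 of day 3 (0.37, adjusted p = 0.0689) or replicate 1 of day 7 (0.39, adjusted p = 0.0595), or without the libraries rich in stomach or pancreas transcripts (0.40, adjusted p = 0.103). The control mice of day 7 also had more enterocyte markers (11703 to 21864 against 580.4 to 9287 CPM, 6 of 6 higher) and less smooth muscle (614 to 1106 against 1708 to 3087 CPM, 7 of 7 lower), and the part of these in the differences was not tested. The directions between control mice of the 2 days thus hold for the scaling named with them. The factors of the genotype comparisons differed by -0.11 at 3 days and -0.03 at 7 days.

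Genes whose pattern over the 26 libraries was most like that of *Tfam*, *Polrmt*, *Slirp* and *Lrpprc* were found by the root mean square difference of log2 levels after centring, among the 9530 genes whose mean reached 10 CPM. For *Tfam* these were *Nsmce4a* (0.159), *Sp3*, *Dhx9*, *Rbx1* and *Arid1b*, where the median gene stood at 0.466. For *Polrmt* they were *Ash2l* (0.215), *Usf3*, *Ctnnbl1*, *Sp3* and *Rbm27* (median 0.497). *Tfam* ranked 36 of 9529 for *Polrmt*, with 0.264, whereas *Polrmt* ranked 408 for *Tfam*. For *Slirp* they were *Fip1l1* (0.102), *Crebbp*, *Erp29*, *Iqgap1* and *Sbno1* (median 0.396). *Lrpprc*, added to this search after its values were seen, had *Pfdn1* (0.167), *Psmc6*, *Acat3*, *Mrpl30* and *Eef2* (median 0.654). *Slirp* ranked 2473 of 9529 for *Lrpprc*, with 0.522, and *Lrpprc* ranked 6496 for *Slirp*. Genes that vary little over the libraries lie close to each other by this measure, and a shared control of the genes named was not tested.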

How the data were processed

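Polyadenylated RNA of 26 libraries (1 mouse each) was sequenced from its 3′ ends. The authors trimmed reads with Cutadapt 2.10, aligned them with Subread to GRCm38 and counted them on exons per gene with featureCounts 2.0.1, splitting reads on several genes into fractions. The deposited expected counts, made by the authors in this way, are one value per gene and library, of which 95.01% are whole numbers. The deposited CPM values equal count over library total (largest difference 1.46e-11 CPM) and were only checked. The deposited table has 92 rows of spike-in sequences, all at 0 counts, which were left out. No pair of libraries was identical among 72 pairs within groups. A CPM in the text is a count scaled to the total of its library.

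Groups were taken from the sample titles. Counts were rounded and fitted with edgeR 4.0.16 (R 4.3.3; limma 3.58.1) by its quasi-likelihood test, with TMM factors, the study's filter (a gene is left out with 0 counts in more than 50 percent of the libraries of a group), only the libraries compared in each fit, and Benjamini-Hochberg adjustment over all genes tested at a threshold of 0.05. The study used DESeq2, here an alternative (1.42.0). Other alternatives were size factors of DESeq2, filterByExpr or no filter, all 26 libraries in 1 fit, a replicate block, a 2-fold minimum and each mouse left out. Library totals alone and leaving out 8 libraries rich in stomach or pancreas transcripts were added after seeing the data. The share of counts on mtDNA mRNAs was compared by a two-sided exact permutation test over mice. The scripts were tested on simulated data.

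Replicates are separate mice. Whether the replicate numbers pair the mice is not stated, and the main fits did not pair them. Gene positions and shared exon bases came from GENCODE vM21 (GRCm38), promoters from RefSeq (GRCm38.p6). The 10 factors and all lists were chosen with earlier results of these data known. Named are all 10 factors, up to 2 genes with the largest change per list and direction at each day, and every mtDNA mRNA past the test. The 5 genes most like *Tfam*, *Slirp* and *Polrmt* are named by log2 of scaled CPM plus 0.5. A gene that the same rule would name is not reported here. Intervals at 95 percent are for the fitted fold change, and their width rests on the spread between mice.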

Additional observations from a re-analysis of the deposited data

Results flagged for a closer look

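In 60 groups of values, 6 had 1 mouse far from the others, and chance gives about 1 in 20. Knockout replicate 5 of day 3 had 7.55 CPM of *Polrmt* (others 13.4 to 17.1 CPM). It was also the lowest of its group for *Lrpprc*, *Tfam*, *Tfb1m*, *Tfb2m*, *Polg2* and *Twnk*, and the highest for *Polg* and *Ssbp1*. Its library held the fewest counts of its group (3971500). Control replicate 5 of day 3, whose library was rich in stomach transcripts, had 6.18 CPM of *Tfb1m* (others 3.98 to 4.79 CPM). Knockout replicate 4 of day 7, whose library was rich in pancreas transcripts, had 14.7 CPM of *Ssbp1* (others 6.48 to 9.51 CPM). Knockout replicate 1 of day 7 had 9797.6 CPM of *mt-Co1* (others 7189.8 to 8035.7 CPM), and control replicate 6 of day 3 had 15901.4 CPM of *mt-Cytb* (others 12821.0 to 13785.7 CPM). Control replicate 2 of day 7, whose library was rich in stomach transcripts, had 7.19% of its counts on mtDNA mRNAs (others 8.89% to 9.79%).

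The genotype effect differed between the days by the interaction term for 14 of 29 genes checked (7 minus 3 days, log2 scale, adjusted p under 0.05 with edgeR over all genes), as it did for 18.2% of all genes tested. Besides the 10 factors, the genes checked were named for large changes or for passing the test at 1 of the days, so that this count is not independent of the choice. Besides *Polrmt* (-0.73) and *Polg* (0.43), these were upwards *Slc25a33* (1.64), *Lactb2* (1.36), *Tefm* (1.34), *Myc* (1.12), *mt-Co1* (0.96), *Yrdc* (0.88), *Nsun4* (0.83), *Ddx28* (0.60) and *mt-Cytb* (0.55), and downwards *Abat* (-3.57), *Tymp* (-2.04) and *Trub2* (-0.80). Without the libraries rich in stomach or pancreas transcripts, *Tefm* (0.88, adjusted p = 0.224), *Myc* (1.10, adjusted p = 0.0595), *Ddx28* (0.56, adjusted p = 0.0634) and *Trub2* (-0.69, adjusted p = 0.0979) no longer passed. The call of *mt-Cytb* was lost in 22 of 34 alternatives, among them this one (0.52, adjusted p = 0.0805).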

How the results depend on the processing

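Of 236 alternatives for counts and shares, 186 were classed as unchanged. A count was so classed within 1.5 times its main value, and a share difference if it kept its sign and its side of the p threshold. Values still moved within this class. The share difference at 3 days, 1.17 points in the main test, ran from 0.365 to 3.35 points there. Of 1000 alternatives for the 10 factors, 920 kept direction and call. For genes past the test at 3 days (314), the count was 764 with DESeq2, 787 with all 26 libraries and 131 at a 2-fold minimum. It ran from 194 to 815 with 1 mouse left out, moving by more than 1.5 times without knockout replicates 1 (815), 3 (202), 4 (198) and 7 (203) and control replicates 1 (194), 4 (209), 6 (208) and 7 (204). At a 2-fold minimum 3206 genes passed at 7 days, 1996 for the difference between days and 2967 between control mice, with 0 of the 10 factors in each of these comparisons. With no such minimum and 1 mouse left out, the counts ran from 7141 to 7854, from 3075 to 4085 and from 6438 to 7616.

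Of the 10 factors, 1 passed at 3 days with DESeq2 and 1 with all 26 libraries (0 to 1 with 1 mouse left out), and 3 to 4 passed at 7 days with 1 mouse left out. For the difference between days, 1 passed with DESeq2 size factors, 1 without a filter and 1 with the block, 0 without libraries rich in stomach or pancreas transcripts, and 0 to 2 with 1 mouse left out. Between control mice it was 1 without these libraries and 1 to 2 with 1 mouse left out. With library totals alone, 52.3% of the genes past the test at 3 days were higher in knockout mice, against 77.1% with TMM, and 21.1% of those between control mice were higher at 7 days, against 54.8%. The share of mtDNA mRNAs at 3 days differed by 1.125 points without the rich libraries (exact permutation test, p = 0.196).

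Same-numbered mice correlated from -0.382 to 0.449 in their deviations. These values cannot decide whether the numbers pair the mice, as mice of 1 litter need not deviate together. With the replicate block, 116, 7659, 3166 and 5929 genes passed at 3 days, at 7 days, for the difference and between control mice.

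Signs turned only for estimates that did not pass. For the difference between days, *Polg2* was 0.114, *Twnk* 0.16 and *Slirp* 0.013 without the rich libraries, *Twnk* 0.019 and *Slirp* 0.054 with library totals, and *Slirp* 0.001 without a filter. With 1 mouse left out, *Twnk* ran from -0.187 to 0.013 and *Slirp* from -0.054 to 0.031. At 7 days *Tfb1m* ran from -0.025 to 0.233 and *Tfb2m* from -0.216 to 0.041. Between control mice, *Tfam* was -0.26, *Tfb2m* -0.271, *Polg2* -0.085, *Twnk* -0.072 and *Slirp* -0.195 with library totals, *Polg2* was -0.143 without the rich libraries and *Tfb2m* -0.006 with filterByExpr. With 1 mouse left out, *Tfam* ran from -0.003 to 0.188 and *Tfb2m* from -0.08 to 0.182. The cause of these shifts was not tested.

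Depth limited *Tfb1m*, *Tfb2m* and *Polg2*, with 4 to 44 counts per library.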
